A study of Caenorhabditis elegans with 2 samples.

Results

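Small nuclear RNA (snRNA) genes were examined for peaks of the tagged transcription factor DMD-9 in whole Caenorhabditis elegans. The set comprised every gene that the Ensembl WBcel235 annotation places in the snRNA class, 129 of 46926 annotated genes. A gene counted as having a peak where the summit of a peak lay inside it or within 100 bp of either end, and its value was the signal of the strongest such peak.

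The data came from chromatin immunoprecipitation and sequencing of strain RJP5357, which carries the CRISPR insertion allele rp169, dmd-9::GFP::AID::TEV::3xFLAG, on chromosome IV. The worms were L4 larvae aged 48 hours, grown from bleached embryos that had been starved as L1 larvae, and an antibody to GFP was used to precipitate the tagged protein after sonication to 200 to 800 bp. There was 1 group of 2 biological replicates and no other genotype, stage or treatment, and whole worms were used, so no cell type was separated. The signal is on the scale of the authors' peak caller, it is not scaled between lists, and the depth behind it is unknown.

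DMD-9 belongs to the DM-domain family of DNA-binding proteins, named after doublesex and mab-3. Spliceosomal snRNAs are the RNA cores of the particles that remove introns. U1 pairs with the 5′ splice site, U2 with the branch point, U4 holds U6 until the spliceosome is activated, U5 aligns the exons and U6 takes part in catalysis. Nematodes also make spliced leader (SL) RNAs, short-lived relatives of snRNAs that give their first bases to other transcripts by trans-splicing. SL1 goes to most trans-spliced genes, and SL2 and its variants go to the downstream genes of operons. SmY RNAs are further nematode RNAs that bind Sm proteins and are linked to trans-splicing. As background, snRNA genes in animals have a proximal sequence element upstream of the start that recruits the SNAPc complex, and the U6 genes, which RNA polymerase III transcribes, also have a TATA box between that element and the start.

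In the reference the symbols of the sls-1, sls-2 and smy genes give their kind, those of the others do not, and the others were grouped by sequence similarity and are called here by a conserved element that most of the group holds. The U1-box group of 14 genes is defined by ACTTACCTG, the stretch that in U1 faces the 5′ splice site, found in 12 of them. It includes mir-1831, a 22-base entry with a microRNA name that lies inside sup-39. The U2-box group of 19 genes is defined by GTAGTATCT, which in U2 holds the branch point recognition bases, found in 18. The U4-box group of 5 genes is defined by AGCTTTGCG, present in all 5, and the U5-box group of 12 by GCCTTTTAC, the conserved loop of U5, found in 11. The U6-box group of 22 genes is defined by ACAGAGA, which in U6 contacts the 5′ splice site, found in 21. There were 18 sls-2 genes, 12 sls-1 genes, 10 smy genes, 4 genes of a cluster in which none of these elements was held by most genes, and 13 other genes. These are descriptions of sequence, and a gene in a group may be a pseudogene copy.

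The RNA-coding sequences of 5 genes show groups on which the results turn: the sls-2 gene with the strongest peak, 1 gene each for the U1, U4 and U2 boxes, and the only gene outside the groups with a thresholded peak. Capitals mark the box of each group and, where it is present, the bases ATTTTTG, a form of the site to which Sm proteins bind. In sls-2.1 the first 22 bases are also in capitals and mark the leader that trans-splicing transfers. The stretches are on WBcel235, at chrII:5844865-5844974 on the plus strand for sls-2.1, chrII:12944803-12944967 on the minus strand for sup-6, chrV:11980118-11980261 on the plus strand for C52E4.8, chrV:16225701-16225887 on the minus strand for F11A5.14 and chrX:14476867-14476946 on the plus strand for M163.13. F11A5.14 is shown for the U2-box group, in which no gene had a thresholded peak.
sls-2.1: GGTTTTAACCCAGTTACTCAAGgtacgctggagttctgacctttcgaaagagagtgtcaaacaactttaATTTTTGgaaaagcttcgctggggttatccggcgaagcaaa
sup-6: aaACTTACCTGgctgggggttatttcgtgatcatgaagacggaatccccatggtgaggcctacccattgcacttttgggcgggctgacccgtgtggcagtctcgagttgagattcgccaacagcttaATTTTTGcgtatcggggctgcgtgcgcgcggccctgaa
C52E4.8: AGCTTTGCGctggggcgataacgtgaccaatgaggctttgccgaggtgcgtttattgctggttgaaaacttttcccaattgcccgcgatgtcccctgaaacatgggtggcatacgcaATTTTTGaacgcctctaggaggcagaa
F11A5.14: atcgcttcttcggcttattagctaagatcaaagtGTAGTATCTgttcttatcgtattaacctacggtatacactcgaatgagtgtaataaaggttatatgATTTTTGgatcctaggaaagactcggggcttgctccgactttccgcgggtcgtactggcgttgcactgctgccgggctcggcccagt
M163.13: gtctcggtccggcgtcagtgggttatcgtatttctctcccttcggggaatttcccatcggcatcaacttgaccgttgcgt

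ATTTTTG was found in 72 of the 129 genes, in all 19 of the U2-box group, all 5 of the U4-box group, all 10 smy genes and 13 of 18 sls-2 genes. None of the 22 U6-box genes, the 12 sls-1 genes or the 4 genes of the unnamed cluster held these letters.

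Of the 129 snRNA genes, 19 had a peak in the thresholded list made from both replicates pooled. This is 14.7% (exact Clopper-Pearson 95% interval 9.11% to 22.0%), against 2.74% of all annotated genes. Without the 15363 piRNA genes, of which 4 had a peak, the share of the remaining annotated genes was 4.06%. Among the other small RNA classes measured in the same way, 53 of 346 snoRNA genes (15.3%) and 232 of 634 tRNA genes (36.6%) had a peak. The share of snRNA genes was thus above that of all genes, and the snoRNA share lay inside the interval of the snRNA share. Intervals cover counting error only, and neighbouring or near-identical genes are not independent. The searched stretch grows with gene length, which was not matched in any of these shares. The median length was 109 bp for snRNA genes, 2026 bp for protein-coding genes and 21 bp for piRNA genes.

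The counts were lower in the lists of single replicates. In replicate 1, 12 snRNA genes (9.30%, interval 4.90% to 15.7%) had a thresholded peak, against 1.28% of all genes. In replicate 2 there were 11 (8.53%, interval 4.33% to 14.7%), against 1.12%. In the conservative list, made by setting the replicates against each other, there were 18 (13.95%, interval 8.48% to 21.2%), against 2.62%. In all, 9 genes were in both replicates' lists, a further 5 of the pooled genes were in 1 replicate's list and 5 were in neither. No snRNA gene had a peak in a replicate's list without one in the pooled list. These 9 genes are also the 9 whose pooled peak had an irreproducible discovery rate (IDR), the authors' measure of disagreement in rank, of 0.001 or less.

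**Figure D1:**
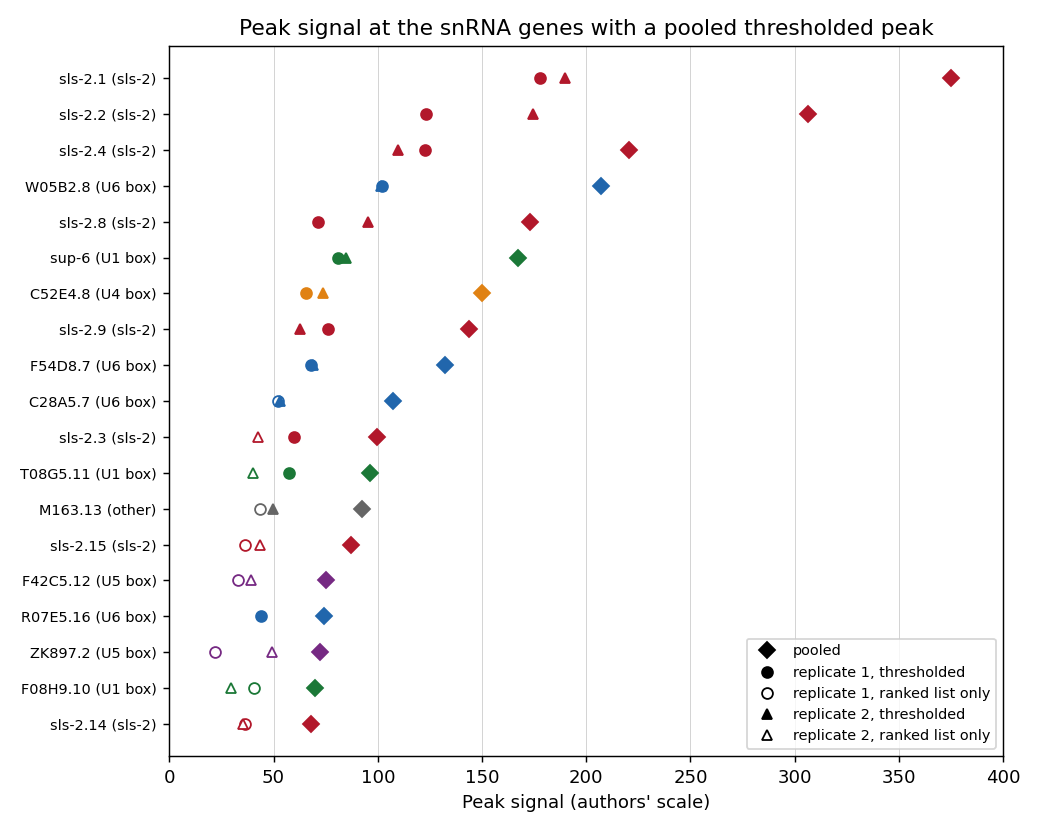
Peak signal on the authors' scale at each of the 19 snRNA genes with a pooled thresholded peak, with diamonds for the pooled list, circles for replicate 1 and triangles for replicate 2, and open symbols where the replicate's peak was only in its ranked list. The pooled signal runs from 68.2 at sls-2.14 to 375 at sls-2.1, and the 9 uppermost genes have filled symbols in both replicates.

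The sls-2 genes, which encode SL2-type leaders, held the 3 strongest peaks and 8 of the 19. The peak of sls-2.1 had a pooled signal of 375, 178 in replicate 1 and 190 in replicate 2, and was 15th of the 1379 pooled peaks by signal. The peak of sls-2.2 had a signal of 306, 123 in replicate 1 and 175 in replicate 2. The peak of sls-2.4 had a signal of 221, 122 in replicate 1 and 110 in replicate 2. In both replicates sls-2.1 was the highest of all snRNA genes, whereas sls-2.2 and sls-2.4 were level in replicate 1 and apart in replicate 2.

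Of the remaining sls-2 genes, sls-2.8 (173 pooled, 71.4 and 95.2 in replicates 1 and 2) and sls-2.9 (144 pooled, 75.9 and 62.8) were in both replicates' lists. The peak of sls-2.3 (99.8 pooled, 59.7 and 42.7) passed the threshold in replicate 1 only. The peaks of sls-2.15 (87.1 pooled, 36.2 and 43.6) and sls-2.14 (68.2 pooled, 36.4 and 35.3) passed it in neither replicate, though both were in the conservative list, and their replicate values are from the ranked lists. Among these, sls-2.2 and sls-2.3 are neighbours whose 3′ ends face each other, sls-2.14 and sls-2.15 are neighbours whose 5′ ends face each other, and each gene had a peak of its own.

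All 3 sls-2 genes on chromosome II had a thresholded peak, as did 2 of 4 on chromosome I, 3 of 6 on chromosome III and none of 5 on chromosome IV. Of the 10 sls-2 genes without one, 6 had a peak in the ranked pooled list, which keeps weak peaks, with signals up to 43.1 at sls-2.11. The leader of sls-2.1 opened 4 of the 18 sls-2 genes letter for letter, and all 4 had a thresholded peak, against 4 of the 14 with another beginning. That split was looked for after the peaks were known. The sequences of sls-2.1 and sls-2.2 were 92.7% identical over the gene and 79.0% identical over the 100 bp upstream, and those of sls-2.1 and sls-2.8 were 75.0% and 49.5% identical.

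The U6-box genes came next, with 4 of 22 having a thresholded peak. W05B2.8, which lies in an intron of dhc-4, had a pooled signal of 207, and its replicates were level at 102 and 102. F54D8.7 had a signal of 132, with 67.8 in replicate 1 and 69.1 in replicate 2. C28A5.7, in an intron of C28A5.6, had a signal of 108, with 52.0 in replicate 1, from the ranked list, and 53.3 in replicate 2. R07E5.16, in an intron of mpc-1, had a signal of 74.2 and 43.9 in replicate 1, and no peak of replicate 2, thresholded or ranked, had its summit within 100 bp.

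These 4 genes were all on chromosome III, which holds 7 of the U6-box genes, whereas none of the 13 on chromosome IV and neither of the 2 on chromosome V had a thresholded peak. The RNA-coding sequence of W05B2.8 occurs 17 times in the genome, and those of C28A5.7 and R07E5.16 are identical to it. F54D8.7 is annotated 1 base shorter and is otherwise identical. The flanks differ, with 56.7% identity between W05B2.8 and C28A5.7 over the 100 bp upstream. How reads from identical copies were placed is not given in the sources used here, so a signal inside such a gene may be shared among copies.

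Among the U1-box genes 3 of 14 had a thresholded peak. The peak at sup-6, in an intron of F58G1.7, had a signal of 167, with 81.1 in replicate 1 and 84.6 in replicate 2. T08G5.11 had 96.0, with 57.2 in replicate 1 and 40.3 in replicate 2, and passed the threshold in replicate 1 only. F08H9.10 had 69.9, with 40.5 and 29.6 from the ranked lists, and was in neither the replicates' lists nor the conservative list. It overlaps an exon of F08H9.3. The gene sequences of sup-6 and T08G5.11 were 97.0% identical.

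Of the 5 U4-box genes, C52E4.8 had a thresholded peak, with a signal of 150, 65.7 in replicate 1 and 73.9 in replicate 2. Its summit also lay within the 5′ end window used for protein genes at snr-4, which encodes an Sm protein. Of the 12 U5-box genes, F42C5.12 had a signal of 75.1 (32.9 and 39.3 in the ranked lists of replicates 1 and 2) and ZK897.2, in an intron of unc-31, had 72.4 (21.9 and 49.04). Neither passed in a single replicate, and ZK897.2, whose replicates differed most among the 18 genes with a value in both, was not in the conservative list. F38E11.10, a further U5-box gene, was in the conservative list with a signal of 82.1 (52.2 and 37.2 in the ranked lists), and its pooled IDR of 0.0138 was just past the authors' threshold of 0.01. The sequences of C52E4.8, ZK897.2 and F38E11.10 each occur 2 times in the genome, so signal inside these genes may also be shared between copies.

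The last gene with a peak was M163.13 on chromosome X, an 80-base gene outside all groups. Its signal was 92.4, with 43.4 in the ranked list of replicate 1 and 49.96 in the thresholded list of replicate 2. It was the only 1 of 3 snRNA genes on the X chromosome with a thresholded peak.

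No thresholded peak was found at the 19 U2-box, 12 sls-1 or 10 smy genes, nor at the 4 genes of the unnamed cluster. In the ranked pooled list 15 of the U2-box genes had a peak, and the strongest, W04G5.11, had a signal of 62.1 (22.6 and 44.6 in replicates 1 and 2). None of the sls-1 or smy genes had one, although 1 smy gene had a ranked peak in replicate 1 and 2 had one in replicate 2. The sls-1 genes stand in an array on chromosome V, and the median share of 31-base words in and around them that occur once in the genome was 0%. For smy genes that median was 100%, and for U2-box genes 34.7%. The part of repeated sequence in these counts was not tested.

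**Figure D2:**
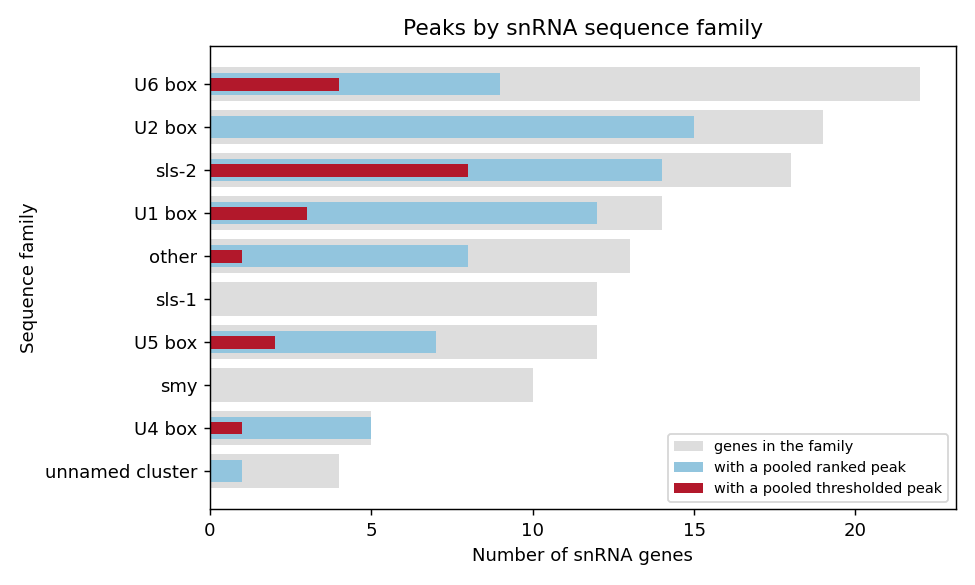
Number of snRNA genes in each sequence family (grey), number with a pooled ranked peak (blue) and number with a pooled thresholded peak (red). The red bar is longest for the sls-2 genes, at 8 of 18, and absent for the U2-box, sls-1 and smy genes and the unnamed cluster.

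Over the whole set, 71 of 129 snRNA genes (55.04%, interval 46.0% to 63.8%) had a peak in the pooled ranked list, against 51.3% of all genes. The ranked shares were thus close, but they are not matched for gene length, on which the searched stretch depends. In replicate 1 the ranked count was 60 (46.5%), against 40.0% of all genes, and in replicate 2 it was 59 (45.7%), against 40.4%. The 52 genes with a ranked but no thresholded pooled peak had signals from 4.28 to 82.1, with a median of 38.2. The strongest after F38E11.10 and W04G5.11 were K09C6.12 with 60.7, a U6-box gene, T10H4.16 with 58.7, outside the groups, and Y54G9A.8 with 57.9, of the U2-box group. In all, 45 genes had no summit within 100 bp in the ranked list of the pool or of either replicate.

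In the pooled thresholded list no gene lay close to the 100 bp limit. The furthest summit from its gene among the 19 lay 54 bp away, and the nearest summit of the pooled thresholded list to any other snRNA gene lay 571 bp away. No gene had its nearest summit of that list beyond 100 bp and within 200 bp.

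Over the 9 genes in both thresholded lists, which were selected for passing in both, Spearman's rho between the replicates' signals was 0.85. Over the 43 genes with a ranked peak in both it was 0.71. Those 43 include 18 genes with a pooled thresholded peak, whose signals were mostly higher, so this rho includes the gap to the rest. Agreement among the rest alone was not computed, and overlapping genes can enter with the same peak. Both values of rho describe genes within the same 2 libraries, which share any effect of sequence on read placement. Across 18 of the 19 genes with a pooled peak the ratio of replicate 1 to replicate 2 had a median of 0.967, from 0.447 at ZK897.2 to 1.42 at T08G5.11. Over 1342 pooled peaks of the whole list the median ratio was 0.913. There each replicate's value was its strongest ranked peak overlapping the pooled peak, not the one with a summit near a gene, so the measures differ. The signal was higher in replicate 1 at 7 of the 18 genes and in replicate 2 at 11.

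**Figure D3:**
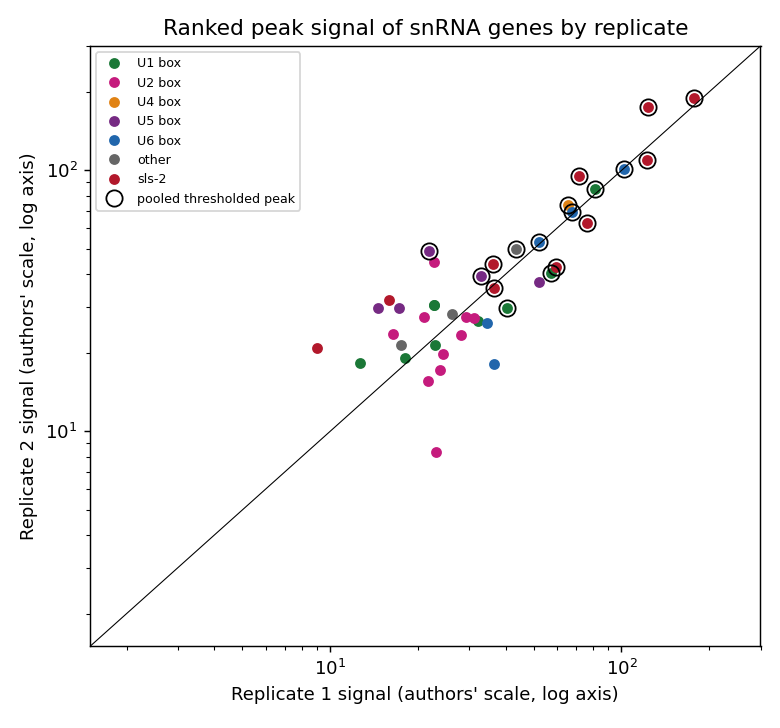
Signal of the strongest ranked peak in replicate 1 against replicate 2, on log axes and the authors' scale, for the 43 snRNA genes with a ranked peak in both, coloured by family, with the line of equality. Genes with a pooled thresholded peak are circled and fill the upper right, and ZK897.2 stands furthest from the line among them.

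The snRNA peaks were of middling to high strength in the list. Their median pooled signal was 107.5 against 85.4 for all 1379 peaks, 14 of the 19 were above that median and 4 were among the 100 strongest. At 5 of the 19 the deposited q value was above 0.05, as it was at 51.3% of all pooled thresholded peaks. These 5 were F42C5.12, R07E5.16, ZK897.2, F08H9.10 and sls-2.14. Peaks were 284 bp wide at the median both here and in the whole list.

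By the counting rule every summit lay inside its gene or within 100 bp of it, and most stood near the 5′ end. The median summit stood 2 bp upstream of the annotated 5′ end (position -2) in the pooled list and at -20 in the thresholded list of either replicate alone, which holds fewer of these genes. In the pooled list 10 summits were upstream of the gene, 8 inside it and 1, that of sls-2.15, past its 3′ end. Within 60 bp of the 5′ end were 18 of the 19. That bound was not planned and lies just above the furthest of these 18, at 56 for F08H9.10. The count that follows is therefore not an even comparison. Among the 52 genes with a ranked but no thresholded pooled peak, 24 summits were within 60 bp, and positions ran from -95 to 258. The summit was at -54 for sls-2.1, -6 for sls-2.2, -24 for sls-2.8, -17 for sup-6, -20 for C52E4.8 and -2 for F54D8.7. At 18 genes the summits of the replicates' ranked peaks could be compared, and they lay a median of 24 bp apart, the furthest being those of F08H9.10 at 57 in replicate 1 and 158 in replicate 2.

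**Figure D4:**
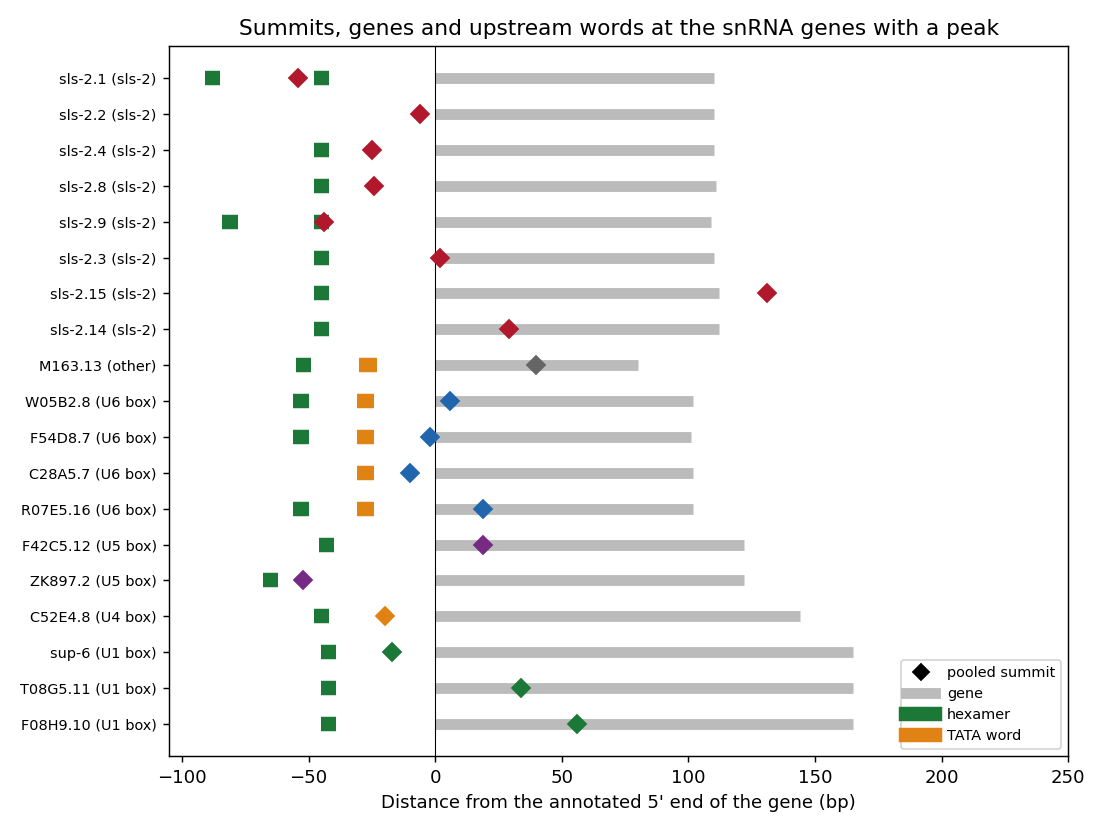
Pooled summits (diamonds, coloured by family) at the 19 snRNA genes with a thresholded peak, as distance in bp from the annotated 5′ end, with the gene in grey, the upstream hexamer described in the text in green and the TATA word in orange. Of the summits 18 lie within 60 bp of the 5′ end, and the TATA word is drawn at 5 genes, all at -31 or -30.

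The 100 bp upstream of the 5′ ends are shown for 10 genes with a thresholded peak, 1 or more from each group that had one, and for 5 without one. Capitals mark 3 words that were more frequent upstream of snRNA genes than upstream of all genes. They are a hexamer TGTCNG, where N is any base, the word GNAACCC and the word TATATAA. The last base of each line is next to the 5′ end. On WBcel235 the stretches lie at chrII:5844765-5844864 plus strand (sls-2.1), chrII:5543498-5543597 plus (sls-2.2), chrIII:12250365-12250464 plus (sls-2.8), chrII:12944968-12945067 minus (sup-6), chrV:11980018-11980117 plus (C52E4.8), chrIV:7316632-7316731 plus (F42C5.12), chrIII:10989579-10989678 plus (W05B2.8), chrIII:5080899-5080998 minus (F54D8.7), chrIII:4426956-4427055 minus (C28A5.7) and chrX:14476767-14476866 plus (M163.13).
sls-2.1: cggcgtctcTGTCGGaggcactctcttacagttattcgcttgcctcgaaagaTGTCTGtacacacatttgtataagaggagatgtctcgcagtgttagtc
sls-2.2: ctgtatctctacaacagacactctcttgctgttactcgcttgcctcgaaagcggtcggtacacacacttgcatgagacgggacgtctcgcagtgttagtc
sls-2.8: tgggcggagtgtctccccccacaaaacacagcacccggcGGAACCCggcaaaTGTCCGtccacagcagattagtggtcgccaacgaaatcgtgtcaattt
sup-6: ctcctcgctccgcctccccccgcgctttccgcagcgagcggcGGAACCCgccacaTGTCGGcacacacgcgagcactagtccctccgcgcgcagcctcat
C52E4.8: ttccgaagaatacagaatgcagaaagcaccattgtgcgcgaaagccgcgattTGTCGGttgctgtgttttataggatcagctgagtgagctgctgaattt
F42C5.12: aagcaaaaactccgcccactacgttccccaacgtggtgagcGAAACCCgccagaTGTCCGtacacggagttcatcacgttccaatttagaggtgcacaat
W05B2.8: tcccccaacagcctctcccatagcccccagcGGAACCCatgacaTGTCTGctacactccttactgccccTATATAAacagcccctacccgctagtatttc
F54D8.7: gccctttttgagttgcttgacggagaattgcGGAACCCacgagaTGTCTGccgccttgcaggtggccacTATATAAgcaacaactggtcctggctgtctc
C28A5.7: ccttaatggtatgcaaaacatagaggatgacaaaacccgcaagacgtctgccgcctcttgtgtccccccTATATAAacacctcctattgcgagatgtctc
M163.13: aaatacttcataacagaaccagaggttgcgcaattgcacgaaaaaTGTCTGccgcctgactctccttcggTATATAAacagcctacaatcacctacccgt

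The 5 genes without a thresholded peak are W07G1.8 (U2 box, chrII:13951322-13951421, plus strand), K09B11.11 (U6 box, chrIV:13435887-13435986, minus strand), sls-2.10 (chrIV:9130830-9130929, minus strand), sls-1.2 (chrV:17131162-17131261, minus strand) and smy-4 (chrV:14094700-14094799, minus strand). TGTCNG stands in capitals in all of these but smy-4, TATATAA in K09B11.11 alone and GNAACCC in smy-4 alone. Of the 10 genes above, 5 hold GNAACCC, and sls-2.2 holds none of the words.
W07G1.8: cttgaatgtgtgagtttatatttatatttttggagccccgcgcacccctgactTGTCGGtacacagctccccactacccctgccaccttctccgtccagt
K09B11.11: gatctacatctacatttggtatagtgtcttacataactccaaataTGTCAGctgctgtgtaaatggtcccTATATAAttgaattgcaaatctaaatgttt
sls-2.10: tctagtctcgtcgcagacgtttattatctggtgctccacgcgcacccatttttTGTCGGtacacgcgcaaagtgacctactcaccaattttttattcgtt
sls-1.2: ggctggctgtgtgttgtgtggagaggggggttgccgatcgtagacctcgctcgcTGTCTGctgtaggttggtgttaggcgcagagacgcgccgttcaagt
smy-4: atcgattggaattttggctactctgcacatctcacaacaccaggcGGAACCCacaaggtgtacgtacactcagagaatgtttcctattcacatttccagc

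The words were picked after the upstream sequences had been counted, and a match is a description of letters. Hexamers of TGTCNG and GNAACCC were among the most frequent ones counted, and none of TATATAA was. TGTCNG was found on the gene's strand within 100 bp upstream of 79 snRNA genes (61.2%) and on the other strand of 2, against 5.37% and 4.68% of all 46920 gene starts with a full window. It began between -48 and -45 at 60 genes (46.5%), against 0.484% of all gene starts. That range, like the one given below for TATATAA, is where these same genes hold the word. The contrast with all gene starts is therefore partly built in. Near-identical upstream stretches were counted separately, as the 12 sls-1 genes have 4 distinct ones. GNAACCC was found upstream of 48 genes (37.2%) and on the other strand of 9, against 1.00% and 0.780% of all. TATATAA was found upstream of 18 genes (13.95%) and on the other strand of 4, against 2.43% and 1.84% of all. On the gene's strand it began at -31 or -30 in 16 of the 18.

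The words followed the groups. TATATAA stood at -31 or -30 in 15 of the 22 U6-box genes and in M163.13, and at no gene of the U1-box, U2-box, U4-box, U5-box or SL groups. TGTCNG stood between -48 and -45 in 18 of 19 U2-box genes, 15 of 18 sls-2 genes and 10 of 12 sls-1 genes. It stood there in 4 of 5 U4-box, 7 of 14 U1-box and 5 of 12 U5-box genes, and in no smy gene. In 12 U6-box genes it began at -56 or -55 instead, and 10 of these 12 also held TATATAA. M163.13 had it at -55 and TATATAA at -30, the spacing of the U6-box genes, although the gene itself was not grouped with them. GNAACCC was found upstream of 11 of 12 U5-box, 8 of 10 smy, 10 of 14 U1-box and 10 of 18 sls-2 genes. It was upstream of 3 of 5 U4-box and 5 of 22 U6-box genes, and of no U2-box or sls-1 gene.

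The words were common at genes with a peak and at genes without. Of the 19 genes with a thresholded peak 17 held TGTCNG somewhere in the 100 bp, as did 62 of the 110 without. A peak was present at 12 of the 60 genes with TGTCNG between -48 and -45, at 5 of the 16 with TATATAA at -31 or -30, and at 2 of the 53 with neither. Those 2 were sls-2.2 and ZK897.2. Among the U6-box genes with TATATAA 4 had a peak and 11 did not, and the U2-box group, in which TGTCNG was nearly universal, had none. Groups differ in copy number and position as well as in these words, and their parts were not told apart.

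The genes with a peak were also described by their surroundings, with no test. Of the 50 snRNA genes with no other within 10 kb, 13 had a thresholded peak, against 6 of 79 with a neighbour. The 79 include all 12 sls-1 genes, none of which had a peak, so neighbours and group were not told apart. For none of the surroundings described here was the same share over all genes computed. Of the 83 whose sequence occurs once in the genome 13 had one, against 6 of 46 with an identical copy. The median share of 31-base words that occur once, over the gene and 100 bp on each side, was 76.1% (36.8% to 100%) for genes with a peak and 66.3% (0% to 100%) for genes without. The median GC content of the same stretches was 43.2% and 42.2%. Of 55 snRNA genes in introns of protein-coding genes 8 had a peak, of 12 that overlap exons 1, and of 62 between protein-coding genes 10.

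Chromosome III held 13 snRNA genes and 7 of the peaks. Chromosomes IV and V held 41 and 40 genes and 2 and 3 peaks, chromosome II held 16 and 4, chromosome I 16 and 2, and chromosome X 3 and 1. The share of all genes with a peak on each chromosome was not computed. The groups are unevenly placed, as the 12 sls-1 genes lie on chromosome V and 13 U6-box genes on chromosome IV, all without a thresholded peak. The parts of group and chromosome were not told apart.

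Some summits lay near other features as well. That of sls-2.9 was within 100 bp of a tRNA gene, and 6 fell in the window from 1000 bp upstream to 200 bp downstream of the 5′ end of a protein-coding gene: egg-5 at sls-2.4, H41C03.3 at sls-2.1, cox-6A at F54D8.7, Y75B8A.23 and tim-1 at sls-2.8, snr-4 at C52E4.8 and F08H9.3 at F08H9.10. At these 6 genes, and at sls-2.9, the peak cannot be assigned to the snRNA gene or to its neighbour from position alone. The other 13 summits, that of sls-2.9 among them, were in no such protein-coding window.

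Protein genes of the snRNA pathway were listed by role, and most had no peak. Of 78 listed genes 68 were matched, and 10 of these (14.7%) had a summit in the 5′ end window in the pooled thresholded list, against 3.88% of all protein-coding genes. The list was chosen with earlier results of these data known, so its contrast with all protein-coding genes is not independent support. The 10 include snr-4, whose peak is also counted at C52E4.8. In the conservative list there were 8, against 3.91%, in replicate 1 there were 4, against 2.06%, and in replicate 2 there were 5, against 2.01%.

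By far the strongest of these was at mog-4, which encodes an RNA helicase of the spliceosome, with a pooled signal of 683, 321 in replicate 1 and 374 in replicate 2. The gene ints-4, for a subunit of the Integrator complex that cuts the 3′ ends of snRNAs, had 184, with 89.6 and 108 in the replicates. Of 7 Sm protein genes, snr-4 had 150, the peak that it shares with C52E4.8, and snr-1 had 133, with 69.9 and 62.2. These 4 genes were in both replicates' lists.

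The remaining 6 were weaker. The gene prp-8, for the central protein of the U5 particle, had 86.0 and passed in replicate 2 with 51.3. A second Integrator gene, ints-9, had 84.5, and snpc-3.4, named for a SNAPc subunit, had 70.7. The LSm gene lsm-6 had 69.6, smn-1, which loads Sm proteins onto snRNAs, had 66.7 and uaf-2, for the small U2AF subunit, had 60.3. The peaks of ints-9, snpc-3.4 and smn-1 were in the conservative list but passed in neither replicate. Those of lsm-6 and uaf-2 were in neither the replicates' lists nor the conservative list. None of the 4 genes listed under SL RNA particles had a pooled thresholded peak: sna-1, sna-2, sut-1 and sut-2, the last better known for a poly(A)-binding protein.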

How the data were processed

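Peaks were deposited on ce11, whose coordinates are those of WBcel235. The authors made thresholded and ranked lists from replicate 1, from replicate 2, from both pooled, and from a direct comparison of the replicates, using the immunoprecipitation and a control, per the labels and the notes deposited with the lists. The deposited signal is the peak caller's value per peak. The deposited −log10 columns hold the q value and the IDR of each peak. No source used here names an aligner or a peak caller, and read depth is unknown. Left out were 8 columns of paired calls in each ranked list, since nothing says which replicate they belong to.

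Genes came from Ensembl WBcel235 and symbols from RefSeq, which matched all 129 members by WormBase ID. Groups were single-linkage clusters at 80% identity over 80% of the shorter gene (blastn 2.17.0), and clusters under 4 genes are called other. A 31-base word was unique if it occurred once in the genome on either strand. Peaks and genes were joined in Python 3.11.15 with pandas 2.3.3 and scipy 1.17.1. Counting was checked with planted summits. No test was run, since there is 1 group. Named genes are every member with a pooled thresholded peak, the 5 strongest ranked without one, and the pathway genes with a peak. Named after their values were seen are sls-2.11, mir-1831, sup-39, 4 pathway genes with no peak, and genes shown for their sequence. Members and lists were chosen with earlier results of these data known. Alternatives covered distance, list, threshold, replicate and copies, and 2 were added after the data were seen. Some gene sequences are not reported here.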

Additional observations from a re-analysis of the deposited data

How the results depend on the processing

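Of 31 alternatives, 24 left the value within 1.5 times the reported one or, for summit position, within the spread between replicates. That spread, 30.6 bp, is the standard deviation of a single summit between replicates, not of a median over genes. The median position of -2 became -20 without replicate 1 and -20 without replicate 2, which this rule counted as unchanged. The pooled count of 19 genes was 17 to 19 with distances of 50 and 200 bp, with overlap of the peak interval, with the conservative list and with the ranked list at an IDR of 0.01. It was 14 at a q of 0.05 or less, 13 without genes that have an identical copy, 18 without the gene near a tRNA gene and, added after the data were seen, 13 without summits in a protein-coding 5′ end window. It moved to 8 when the summit had to lie inside the gene, since 11 of the 19 summits lie outside it, and to 9 at an IDR of 0.001 or less. Without replicate 1 it was 11 and without replicate 2 it was 12. The count of pathway genes, 10, moved to 4 at a q of 0.05 or less, and was 5 without replicate 1 and 4 without replicate 2. The causes were not tested. No paired analysis was possible because there is 1 group. Depth is unknown, how reads of identical copies were placed is unknown, and 2 replicates of whole worms limit what the counts can show.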
